A study of Bos taurus with 24 samples.

Results

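The respiratory chain and ATP synthase genes of cow gluteus medius muscle, a hip muscle sampled by needle, were examined on Affymetrix arrays. Members were the genes whose annotated symbols name nuclear-encoded subunits of complexes I to V or cytochrome c, taking the brightest array row of each gene and requiring a mean log2 signal at or above the 25th percentile of all rows. Of 86 such genes, 85 passed the filter, among 14198 named genes that passed it and 18444 named genes in all. The 85 comprised 35 genes of complex I, 4 of complex II, 9 of complex III, the cytochrome c gene CYCS, 17 of complex IV and 19 of complex V. NDUFA4, named as a complex I gene, was counted with complex IV, where the protein is now known to sit. The gene that missed the filter value of 6.76 was NDUFA4L2 at 5.75, and the members just inside it were COX7B2 at 6.92 and COX6B2 at 7.03. ATP5I, an older symbol of ATP5ME, stood beside ATP5ME as a separate name with its own row.

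All animals were crossbred beef cows, from a trial of 121 cows. Their diet was first restricted, to 120 kcal of metabolizable energy for each kg of metabolic weight, over 112 days, with a muscle biopsy on day 105, and then had free access to feed for a further 112 days, with a biopsy on day 49. The 6 cows of highest and the 6 of lowest gain during free access formed the high gain and low gain classes, so gain class rests on performance after biopsy 1 and around biopsy 2. Each cow gave both biopsies, which makes 24 arrays in 4 groups of 6. Biopsy 1 was read as the restricted and biopsy 2 as the freely fed state from the order in the protocol. The arrays of each biopsy were taken as normalized separately, so feeding state and processing set cannot be told apart. No age or breed composition was used.

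The mitochondrial respiratory chain passes electrons from NADH through complex I, or from succinate through complex II, to coenzyme Q, then through complex III and cytochrome c to complex IV, which reduces oxygen. Complexes I, III and IV pump protons across the inner membrane, and complex V, the ATP synthase, makes ATP as the protons flow back. Skeletal muscle carries these complexes in abundance, most in slow and oxidative fibres, and uses muscle forms of several complex IV subunits in place of the forms found in most other tissues.

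One array stood apart before any comparison. The biopsy 1 array of low gain cow 4 had an ACTA1 (skeletal actin) signal of 14.51, while the lowest on any of the other arrays was 19.75. On it CKM, the muscle creatine kinase, was at 14.60 and ADIPOQ, an adipocyte hormone, was at 17.98. Of the same muscle list, TTN stayed at the limit of 19.81 and NEB was at 18.65. PECAM1 (endothelium) at 15.59, DCN (matrix) at 17.70 and MYH11 (smooth muscle) at 16.90 were the highest of the 12 biopsy 1 arrays. DPT, also of the matrix list, was not the highest at 9.23, and RGS5, a pericyte marker, was the lowest at 12.99. On this array 78 of the 85 members lay below all 11 other biopsy 1 arrays, with a median difference of -3.82 from their mean. This held for 35 of 35 genes of complex I, 4 of 4 of complex II and 9 of 9 of complex III. It also held for CYCS, 11 of 17 of complex IV and 18 of 19 of complex V. The exception in complex V was ATP5I at 9.57, while the row of ATP5ME, the newer symbol of that gene, was at 7.21. In complex IV, 4 genes were instead above all 11 others: COX6A1 at 10.83, COX7A2L at 13.42, COX7B2 at 7.19 and COX8A at 11.33. The biopsy 2 array of high gain cow 4, with ACTA1 at the scale limit, CKM at 19.22 and ADIPOQ at 18.17, was the lowest of 12 for 61 members, with a median deviation of -0.85. In tissue pieces of this kind, fewer muscle cells and less of a transcript per cell cannot be told apart. Each comparison is therefore given with all cows, without the array of low ACTA1 (and so without that cow's pair), and, where it matters, without both of these cows.

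**Figure D1:**
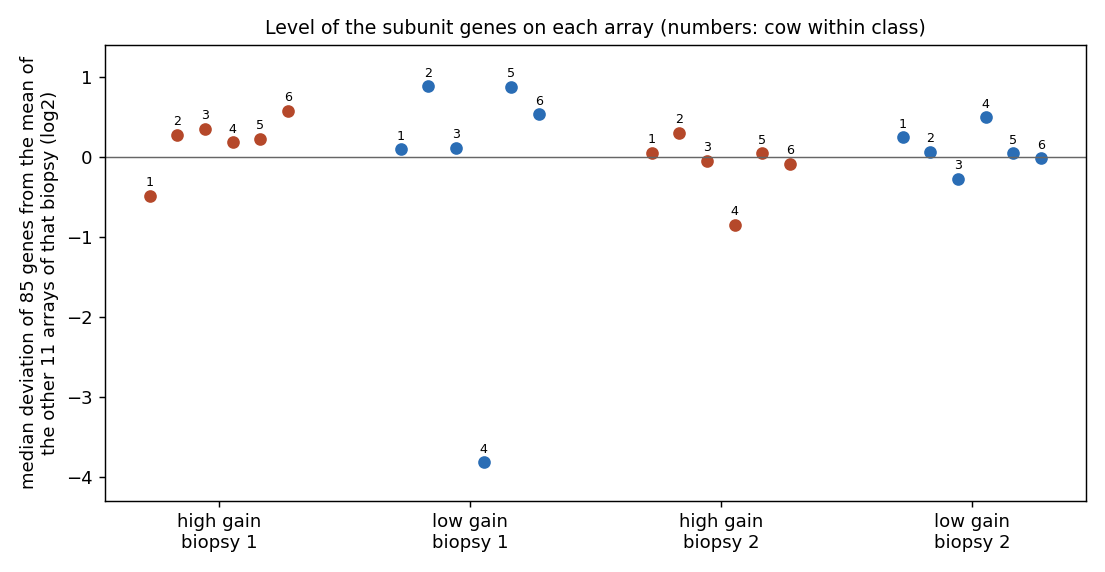
Median over the 85 genes of the deviation of each array from the mean of the other 11 arrays of its biopsy (log2, vertical axis), in the 4 groups, with points numbered by cow. Low gain cow 4 at biopsy 1 lies at -3.82 and high gain cow 4 at biopsy 2 at -0.85, while the other 22 arrays lie between -0.49 and 0.88.

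Over all 12 cows, 18 of the 85 members changed between the biopsies, 16 of them higher and 2 lower at biopsy 2 (limma with cow as a block, Benjamini-Hochberg adjusted p under 0.05 over all genes tested). Of all genes tested, 38.1% changed, 20.8% higher and 17.4% lower, so the members' share of 21.2% was below the background. The median change of the members was 0.35 on the log2 scale, against 0.02 over all genes, and 64 members had a positive estimate. Without low gain cow 4, 37 members changed, 20 higher and 17 lower, and the median of the members was 0.06. The background was then 41.5%, with 22% higher and 19.5% lower, and the members' share was 43.5%. All 18 members called over 12 cows were among the 37. Of the 19 added, 15 were lower at biopsy 2, and 17 of the 85 estimates changed sign. Without both cows 4, 41 members were called, 25 higher and 16 lower, against a background of 42.5%, and 36 of the 37 were among them. The count over all cows also depended on other animals: it was 8 when high gain cow 1 was left out, 9 for low gain cow 1, 10 for high gain cow 3, and 11 for each of high gain cows 2 and 5. Of the 18 calls, 8 held whichever cow was left out (NDUFB4, NDUFA1, NDUFA3, NDUFS6, COX4I2, COX5B, COX8B and COX6B2).

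Per cow, the median change over the 85 members was 4 in low gain cow 4, 0.95 in high gain cow 1, 0.62 in low gain cow 1 and 0.53 in high gain cow 2. It was negative in 5 cows, from -0.15 in high gain cow 6 to -0.60 in high gain cow 4. The medians over all genes in the same cows lay between -0.04 and 0.04.

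**Figure D2:**
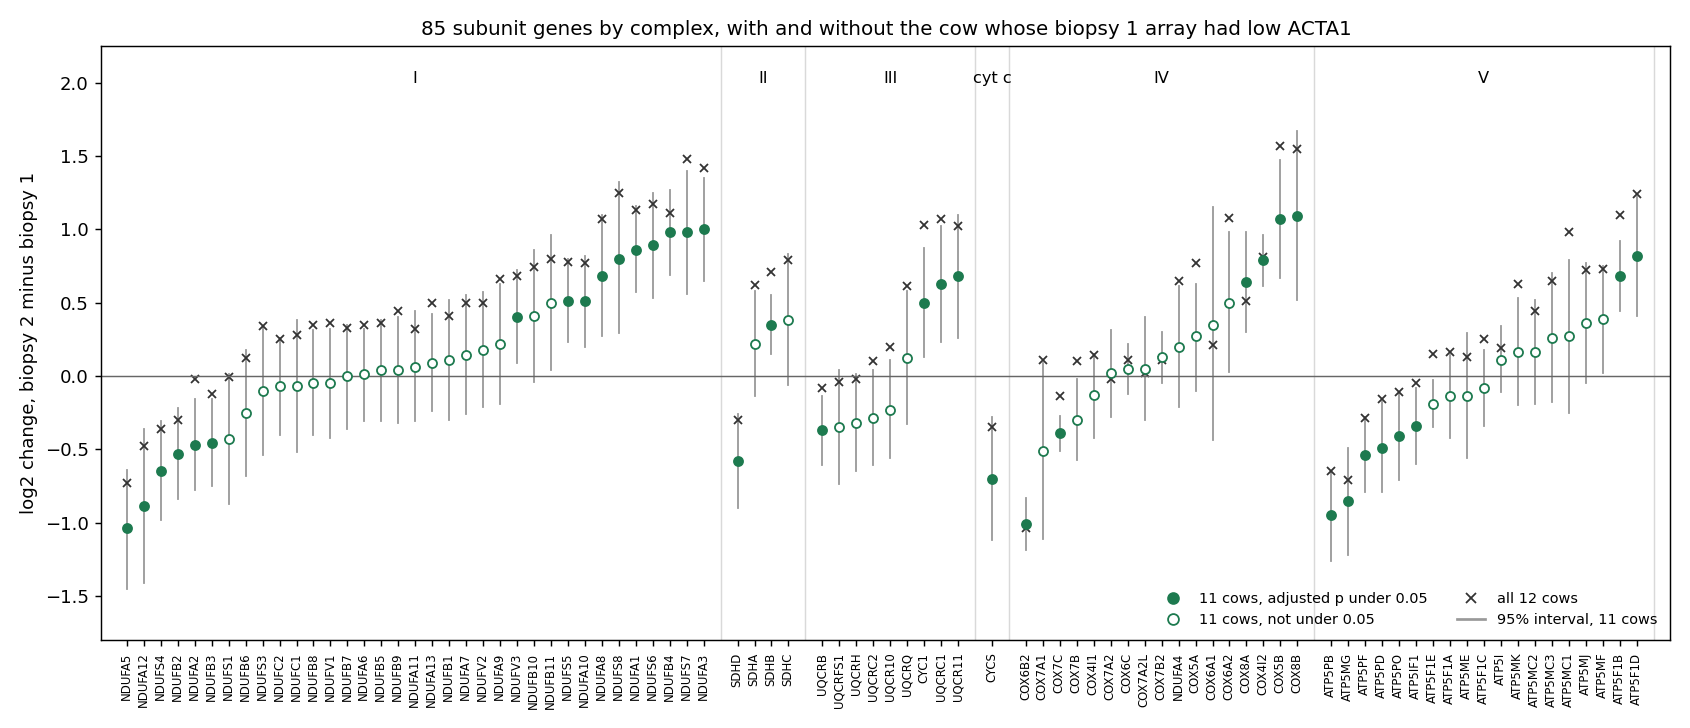
Log2 change from biopsy 1 to biopsy 2 of each of the 85 genes, grouped by complex, with circles for the 11 cows that remain without low gain cow 4 (filled where the adjusted p was under 0.05, bars for 95% intervals) and crosses for all 12 cows. Most crosses lie above their circles, and the circles run from -1.04 for NDUFA5 to 1.09 for COX8B.

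Complex I, the NADH dehydrogenase, had 9 members higher and none lower over all cows, with a median of 0.41. That is 25.7% of its genes, below the 38.1% of all genes tested. Without low gain cow 4 it had 10 higher and 6 lower, or 45.7% against 41.5% of all genes, with a median of 0.06. Among the core subunits, which carry the flavin and iron-sulphur clusters, 2 of 6 rose with or without that cow, NDUFS7 and NDUFS8. NDUFS7 ranged from 7.07 through a median of 12.23 to 13.64 at biopsy 1 and from 12.13 through 13.38 to 13.80 at biopsy 2, as quantile normalized log2 signal. The biopsy 1 value of 7.07 was that of low gain cow 4, the next lowest was 10.72, and the biopsies overlapped, yet the gene was higher at biopsy 2 in all 12 cows. Its change was 1.48 (SE 0.47, adjusted p = 0.0245), and 0.98 (SE 0.20, adjusted p = 0.00179) in the other 11 cows; the call was lost without high gain cow 1. NDUFS8 changed by 1.25 (SE 0.45, adjusted p = 0.0439) over all cows and by 0.80 (SE 0.24, adjusted p = 0.0169) in the 11. The other core members, NDUFS1, NDUFS3, NDUFV1 and NDUFV2, did not pass the test in either set, with changes in the 11 cows between -0.43 and 0.18.

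NDUFB4, an accessory subunit of the membrane arm, ranged from 6.72 through 8.30 to 8.88 at biopsy 1 and from 8.44 through 9.43 to 9.74 at biopsy 2. At biopsy 2, 10 of the 12 cows were above the highest biopsy 1 value, and every cow was higher than at its own biopsy 1, by 0.10 to 2.80. The change was 1.11 (SE 0.17, adjusted p = 0.000298), the smallest p of the complex, and 0.98 (SE 0.13) in the 11 cows. A dimmer row of the same gene had a change of 0.06 (SE 0.14), so the 2 rows named NDUFB4 disagree and the rise belongs to 1 of them.

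NDUFA3, another accessory subunit, rose by 1.42 (SE 0.41, adjusted p = 0.0144) over all cows and by 1.00 (SE 0.16, adjusted p = 0.000477) in the 11, and was higher in all 12. NDUFA1, whose loss blocks assembly of the complex in human cells, ranged from 7.81 through 10.26 to 11.11 at biopsy 1 and from 10.72 through 11.34 to 11.89 at biopsy 2. At biopsy 2, 8 of 12 cows were above every biopsy 1 value. The change was 1.13 (SE 0.27, adjusted p = 0.00519), with 0.86 (SE 0.14) in the 11 cows. NDUFS6, an accessory subunit that holds a zinc ion, had 11 of 12 cows at biopsy 2 above the highest biopsy 1 value of 16.60 and rose by 1.17 (SE 0.30, adjusted p = 0.00776). NDUFS5, NDUFA8 and NDUFA10, all accessory subunits, rose by 0.78, 1.07 and 0.77, and by 0.51, 0.68 and 0.51 in the 11 cows.

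The lower members of complex I appeared without low gain cow 4. They were NDUFA5, NDUFA12, NDUFS4, NDUFB2, NDUFA2 and NDUFB3, all accessory subunits, with changes from -1.04 to -0.46 in the 11 cows and from -0.73 to -0.02 over 12. NDUFA5 ranged from 12.08 through 15.44 to 16.38 at biopsy 1 and from 13.63 through 14.64 to 14.98 at biopsy 2. The 12.08 was again low gain cow 4, the next lowest was 14.86, and 10 of 12 biopsy 2 values lay under 14.86. It was lower at biopsy 2 in 11 cows, with changes from -2.39 to -0.19, and higher by 2.75 in low gain cow 4. Its change was -0.73 (SE 0.34, adjusted p = 0.104) over all cows and -1.04 (SE 0.19, adjusted p = 0.000968) without that cow. NDUFS4, a subunit whose loss causes Leigh syndrome in humans, had -0.65 (SE 0.15, adjusted p = 0.0053) in the 11 cows. NDUFV3, a small subunit next to the NADH site, joined the higher members there at 0.40 (SE 0.15, adjusted p = 0.0406). NDUFB5, the brightest row of the complex, did not pass, with 0.36 over all cows and 0.04 in the 11.

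Complex II, the succinate dehydrogenase shared with the citric acid cycle, had no member of 4 called over all cows by limma (38.1% of all genes were), and none had an unadjusted p under 0.05. SDHB, its iron-sulphur subunit, ranged from 13.65 through 17.48 to 18.06 at biopsy 1 and from 17.05 through 17.89 to 18.31 at biopsy 2. All values but the 13.65 of low gain cow 4 lay within 17.05 to 18.31, and the biopsies overlapped. Its change of 0.71 (SE 0.33, adjusted p = 0.112) became 0.35 (SE 0.09, adjusted p = 0.0092) in the 11 cows, 10 of them higher. SDHD, a membrane anchor, was lower there at -0.58 (SE 0.15, adjusted p = 0.00761). The other anchor SDHC and the flavin subunit SDHA had changes of 0.38 and 0.22 in the 11 cows and did not pass.

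Complex III, the cytochrome bc1 complex, had 1 of 9 members called over all cows (11.1% against 38.1% of all genes), UQCR11, a small subunit. UQCR11 ranged from 13.49 through 16.31 to 17.51 at biopsy 1 and from 15.87 through 17.18 to 18.07 at biopsy 2. At biopsy 2, 4 cows were above the highest biopsy 1 value, and 11 of 12 cows were higher than at biopsy 1. The change was 1.02 (SE 0.35, adjusted p = 0.0365) over all cows and 0.68 (SE 0.19, adjusted p = 0.0135) in the 11. In the 11 cows CYC1, the haem-bearing cytochrome c1, rose by 0.50 (SE 0.17, adjusted p = 0.0321) and UQCRC1, a core protein, rose by 0.63 (SE 0.18, adjusted p = 0.015), while UQCRB, a small subunit near the quinone site, fell by 0.37 (SE 0.11, adjusted p = 0.0159). The Rieske iron-sulphur protein UQCRFS1, the core protein UQCRC2, UQCRH, UQCR10 and UQCRQ did not pass, with changes between -0.35 and 0.12.

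CYCS, the mobile electron carrier between complexes III and IV, ranged from 8.49 through 12.34 to 13.45 at biopsy 1 and from 10.63 through 11.77 to 12.25 at biopsy 2. Low gain cow 4 held the 8.49 and high gain cow 4 the 10.63, and the biopsies overlapped. The change was -0.35 (SE 0.35, adjusted p = 0.467) over all cows and -0.70 (SE 0.19, adjusted p = 0.0121) in the 11, of which 10 were lower at biopsy 2.

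Complex IV, the cytochrome c oxidase, had 4 members higher and 1 lower over all cows (29.4% against 38.1% of all genes), and 4 higher and 2 lower in the 11 (35.3% against 41.5%). COX5B, the subunit that binds zinc on the matrix side, ranged from 6.80 through 11.73 to 13.18 at biopsy 1 and from 11.52 through 13.16 to 13.61 at biopsy 2. The 6.80 was low gain cow 4, the other biopsy 1 values started at 10.34, and the ranges overlapped, although every cow was higher at biopsy 2. Its change, 1.57 (SE 0.47, adjusted p = 0.0175), was the highest estimate of any member, and it was 1.07 (SE 0.18, adjusted p = 0.000716) in the 11 cows. COX7C, a small subunit whose row lay within 0.05 of the scale limit on 1 array, had -0.14 over all cows and -0.39 (SE 0.06, adjusted p = 0.000198) in the 11, while a dimmer row of that gene had 0.31 (SE 0.32) over all cows.

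**Figure D3:**
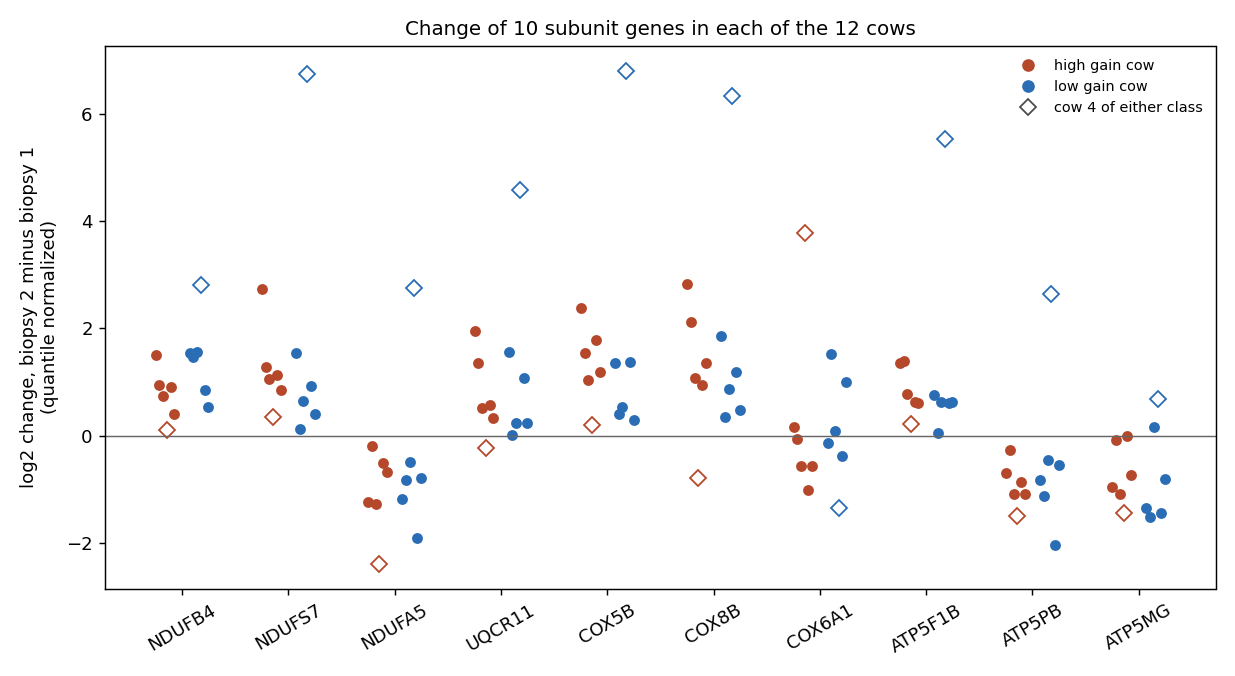
Log2 change from biopsy 1 to biopsy 2 (quantile normalized signal, vertical axis) of 10 genes in each cow, with high gain cows in orange, low gain cows in blue and cow 4 of either class as open diamonds. Low gain cow 4 gave changes of 2.64 to 6.80 in 8 of the genes, 0.68 in ATP5MG and -1.35 in COX6A1, and high gain cow 4 had the highest change of COX6A1 at 3.78.

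Complex IV has gene pairs of which one form serves heart and skeletal muscle and the other most tissues. COX8B, a muscle form, ranged from 9.62 through 13.89 to 15.02 at biopsy 1 and from 12.34 through 15.37 to 15.94 at biopsy 2. At biopsy 2, 9 cows were above every biopsy 1 value, while high gain cow 4 was at 12.34 and had a change of -0.79 from its own biopsy 1. The change was 1.55 (SE 0.47, adjusted p = 0.0187), with 1.09 (SE 0.26, adjusted p = 0.00572) in the 11 cows. COX8A, the widely expressed partner, also rose, by 0.51 (SE 0.19, adjusted p = 0.0466) over all cows and by 0.64 (SE 0.16, adjusted p = 0.00643) in the 11, but the call over all cows held in 2 of the 12 fits that left out a cow.

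COX6A2, the muscle form of the next pair, ranged from 11.40 through 17.53 to 18.34 at biopsy 1 and from 16.24 through 18.23 to 18.81 at biopsy 2. The low ends were low gain cow 4 and high gain cow 4, and the biopsies overlapped. Its change was 1.08 (SE 0.55, adjusted p = 0.139) over all cows, 0.50 (adjusted p = 0.0825) in the 11 and 0.69 (adjusted p = 0.00357) without both cows 4. COX6A1, its widely expressed partner, ranged from 8.76 through 9.86 to 11.08 at biopsy 1 and from 8.93 through 9.73 to 13.63 at biopsy 2. The highest biopsy 2 value was high gain cow 4, and the change did not pass at 0.21 (SE 0.36, adjusted p = 0.684) over all cows or at 0.00 without both cows 4. COX7A1 and COX7A2, the muscle and the wider form, had 0.11 and -0.02 over all cows and -0.51 and 0.02 in the 11, none of which passed.

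The forms also moved apart between arrays, as deposited log2 signal. On the biopsy 2 array of high gain cow 4 the muscle forms were at 16.21 (COX6A2), 12.15 (COX7A1) and 12.47 (COX8B), each below the other 11 arrays of that biopsy, whereas COX6A1 at 13.79, COX7A2 at 12.32 and COX8A at 12.83 were each above all 11. The next highest COX6A1 signals at biopsy 2 were 11.60 in low gain cow 2 and 10.90 in low gain cow 6, whose ADIPOQ signals of 14.81 and 15.91 followed the 18.17 of high gain cow 4. The order of low gain cows 2 and 6 was thus opposite for COX6A1 and ADIPOQ. At biopsy 1 low gain cow 4 had ADIPOQ at 17.98 but COX6A1 at 10.83. On the biopsy 1 array of low gain cow 4, COX6A2 was at 11.13, COX7A1 at 8.80 and COX8B at 9.57, each below the other 11 arrays of that biopsy. Of the wider forms there, COX6A1 and COX8A were above all 11, but COX7A2 at 11.41 lay inside their range of 10.62 to 11.76. The part of adipose tissue in these values was not tested.

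**Figure D4:**
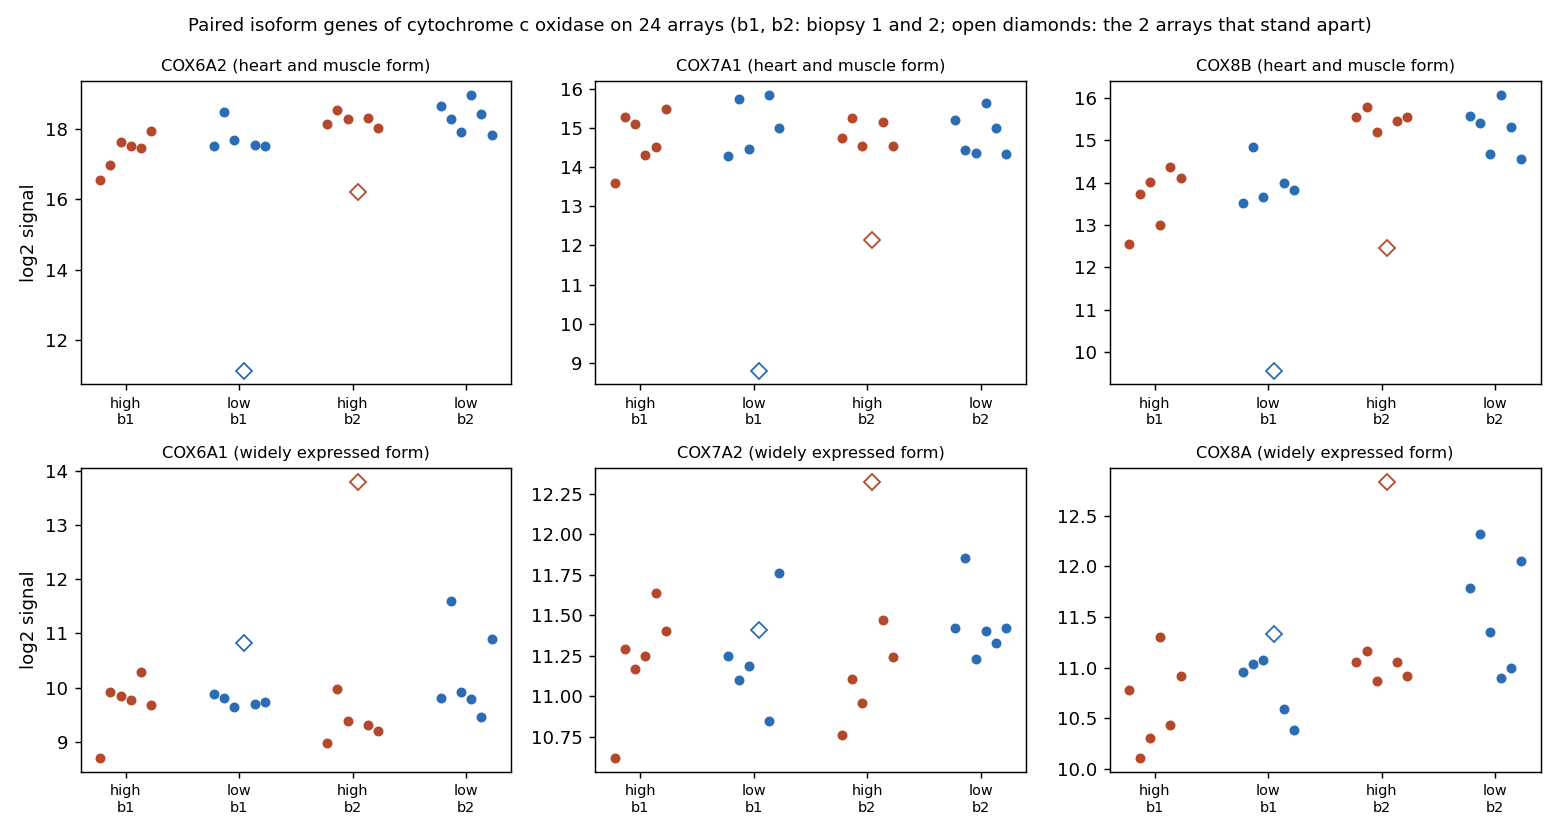
Deposited log2 signal (vertical axes, scaled per panel) of 3 complex IV gene pairs in each array, with the muscle form above and the widely expressed form below, high gain cows in orange and low gain cows in blue. The open diamonds, low gain cow 4 at biopsy 1 and high gain cow 4 at biopsy 2, are lowest in all 3 upper panels for their biopsy, and the second of them is highest of all arrays in the 3 lower panels, at 13.79, 12.32 and 12.83.

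COX4I2, the form of subunit 4 known mainly from lung, and COX6B2, known mainly from testis, were dim genes that changed in every cow. COX4I2 ranged from 6.78 through 7.32 to 7.55 at biopsy 1 and from 7.86 through 7.96 to 8.41 at biopsy 2, and COX6B2 ranged from 7.25 through 7.54 to 7.82 and from 6.30 through 6.57 to 6.77. Neither gene's biopsies overlapped. The share of all genes tested without overlap is not given here, so nothing particular to these genes is read from it. The same limit holds for the counts of cows above the highest biopsy 1 value given for other members. On the biopsy 1 array of low gain cow 4, the deposited signal of COX4I2 was the lowest of 12 at 6.85, next to 6.92, and that of COX6B2 at 7.71 lay inside the range of the others. COX4I2 rose by 0.81 (SE 0.08, adjusted p = 1.15e-05) and COX6B2 fell by 1.04 (SE 0.08, adjusted p = 2.72e-06). Both lay close to the filter value of 6.76, both passed in each gain class alone, and both are absent from the counts when the filter is set at the median. COX4I1, the usual partner of COX4I2, had 0.14 (SE 0.28, adjusted p = 0.721), and NDUFA4 had 0.65 (SE 0.44, adjusted p = 0.262). COX7B2, the dimmest row of the complex, had 0.11 over all cows and 0.13 in the 11.

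Complex V had 2 members higher and 1 lower over all cows (15.8% against 38.1% of all genes), and 2 higher and 6 lower in the 11 (42.1% against 41.5%). In the catalytic F1 head 2 of 5 genes rose in both sets. ATP5F1B, the catalytic beta subunit, ranged from 13.66 through 18.15 to 18.85 at biopsy 1 and from 18.41 through 18.82 to 19.27 at biopsy 2. Apart from the 13.66 of low gain cow 4 the biopsy 1 values started at 17.46, 5 biopsy 2 values lay above the highest of biopsy 1, and all 12 cows were higher at biopsy 2. Its change was 1.10 (SE 0.39, adjusted p = 0.0401), and 0.68 (SE 0.11, adjusted p = 0.000436) in the 11 cows. ATP5F1D, the delta subunit of the rotor stalk, rose by 1.24 (SE 0.41, adjusted p = 0.0285) and by 0.82 (SE 0.19, adjusted p = 0.00419). ATP5F1A, ATP5F1C and ATP5F1E, the alpha, gamma and epsilon subunits, had -0.14, -0.08 and -0.19 in the 11 cows and did not pass.

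The peripheral stalk holds the head against the turning rotor. Like the other parts of complexes I and V, it was set apart after the data were seen. Of its 4 genes, 0 were called over all cows (limma, 0 at an unadjusted p under 0.05), against 38.1% of all genes. In the 11 cows 4 of 4 genes of the stalk were lower, against 19.5% of all genes. ATP5PB, its b subunit, ranged from 14.93 through 18.29 to 19.03 at biopsy 1 and from 16.88 through 17.63 to 18.49 at biopsy 2. The 14.93 was low gain cow 4, the next lowest was 17.97, and 10 of the 12 biopsy 2 values lay below 17.97. It was lower in 11 cows, with -0.65 (SE 0.31, adjusted p = 0.116) over all 12 and -0.95 (SE 0.14, adjusted p = 0.000251) in the 11. ATP5PF, ATP5PD and ATP5PO, the other stalk subunits, had -0.54, -0.49 and -0.41 in the 11 cows.

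ATP5MG, the g subunit of the membrane part, fell in both sets. It ranged from 16.44 through 17.83 to 18.68 at biopsy 1 and from 16.01 through 17.13 to 17.78 at biopsy 2, so the biopsies overlapped, and it was lower in 10 of 12 cows. The change was -0.71 (SE 0.23, adjusted p = 0.0243), and -0.85 (SE 0.17, adjusted p = 0.00175) in the 11 cows. ATP5IF1, the inhibitor that binds the enzyme when the proton gradient fails, had -0.05 over all cows and -0.34 (SE 0.12, adjusted p = 0.0394) in the 11. The 3 genes of the c ring, ATP5MC1, ATP5MC2 and ATP5MC3, encode the same mature protein and did not pass, with 0.98, 0.44 and 0.65 over all cows and 0.27, 0.16 and 0.26 in the 11. ATP5ME, the e subunit and the dimmest row of the complex, had 0.13 over all cows and -0.14 in the 11.

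By class, 3 members changed in the high gain cows, COX4I2 and NDUFB4 higher and COX6B2 lower, against a background of 20.3% of all genes (11.5% higher, 8.73% lower). In the low gain cows 6 changed, NDUFB4, NDUFA1, NDUFA3, NDUFS6 and COX4I2 higher and COX6B2 lower, against 20.3% (10.8% higher, 9.46% lower). Both classes share 1 estimate of spread, so leaving out low gain cow 4 altered both counts. They became 25 in high gain cows (18 higher, 7 lower, against 28%, 15.4% and 12.6% of all genes) and 12 in low gain cows (6 higher, 6 lower, against 18.9%, 9.75% and 9.15%). Of these, 11 members were called in both classes. The overlap over all genes is not given here, so nothing particular to the members is read from that count. The medians of the members were 0.15 and 0.59 with all cows, and 0.15 and -0.07 without low gain cow 4, where 38 members of the low gain fit changed sign. Without both cows 4 the counts were 31 and 20, against backgrounds of 28.5% and 22.9%. The count in low gain cows was 3 without low gain cow 1, a fit for which the share of all genes is not given here.

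No member differed between the classes in its change from biopsy 1 to biopsy 2 (limma, 0 of 85 called, 0 at an unadjusted p under 0.05, background 0%). The median difference of the changes, high gain minus low gain, was -0.46 with 77 members negative, but it was 0.21 with 70 members positive without low gain cow 4 and 0.35 without both cows 4. The smallest p was that of NDUFB4, with a difference of -0.69 (95% interval -1.43 to 0.04, adjusted p = 1) over all cows and -0.42 without low gain cow 4. COX4I2 and ATP5PF followed at -0.23 (95% interval -0.57 to 0.11) and -0.68 (95% interval -1.83 to 0.47).

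Between the classes within a biopsy no member was called either (limma, 0 of 85 at each biopsy, background 0%), and 1 member at each biopsy had an unadjusted p under 0.05. At biopsy 1 the median difference, high gain minus low gain, was 0.36, with 73 members higher in high gain cows. Without the array of low ACTA1 it was -0.28, with 79 members lower in high gain cows, 2 at an unadjusted p under 0.05 and 0 called. The deposited log2 signal of COX4I2 had a minimum of 7.25, a median of 7.31 and a maximum of 7.40 in high gain cows, and 6.85, 7.05 and 7.49 in low gain cows. The high gain values lay inside the low gain range, and the difference was 0.23 (SE 0.10, limma adjusted p = 0.955). NDUFB4 and COX7A2L followed at 0.54 (95% interval -0.04 to 1.13) and -0.53 (95% interval -1.16 to 0.11).

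At biopsy 2 the median difference was -0.19, with 78 members lower in high gain cows, and -0.05 without the arrays of high gain cow 4. Without both cows 4 it was 0.03, with 50 members higher and 35 lower in high gain cows, so the direction turned. The biopsy 2 array of low gain cow 4 was the highest of 12 for 43 members. Among biopsy 2 arrays it was lowest for the fast fibre marker MYH1 at 11.93 and highest for the slow fibre marker TNNI1 at 19.58. It was not the lowest for PVALB (fast) or the highest for TNNT1 (slow). High gain cow 4 was the lowest at biopsy 2 for TNNI1 at 15.83, but not for the slow fibre marker MYH7B at 9.94. The part of fibre type in these values was not tested. ATP5PF had a difference of -0.45 (SE 0.18, limma adjusted p = 1), ATP5I of -0.28 (95% interval -0.59 to 0.03) and NDUFB8, a membrane arm subunit of complex I, of -0.47 (95% interval -1.06 to 0.12). ATP5I is an older symbol of ATP5ME, and the difference of the ATP5ME row is not given here. By complex the medians at biopsy 1 were 0.37, 0.60, 0.39, 0.23 and 0.32 for complexes I to V, and without the array of low ACTA1 they were -0.27, -0.12, -0.32, -0.25 and -0.29. The direction at biopsy 1 thus rested on 1 array in each of the 5 complexes.

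**Figure D5:**
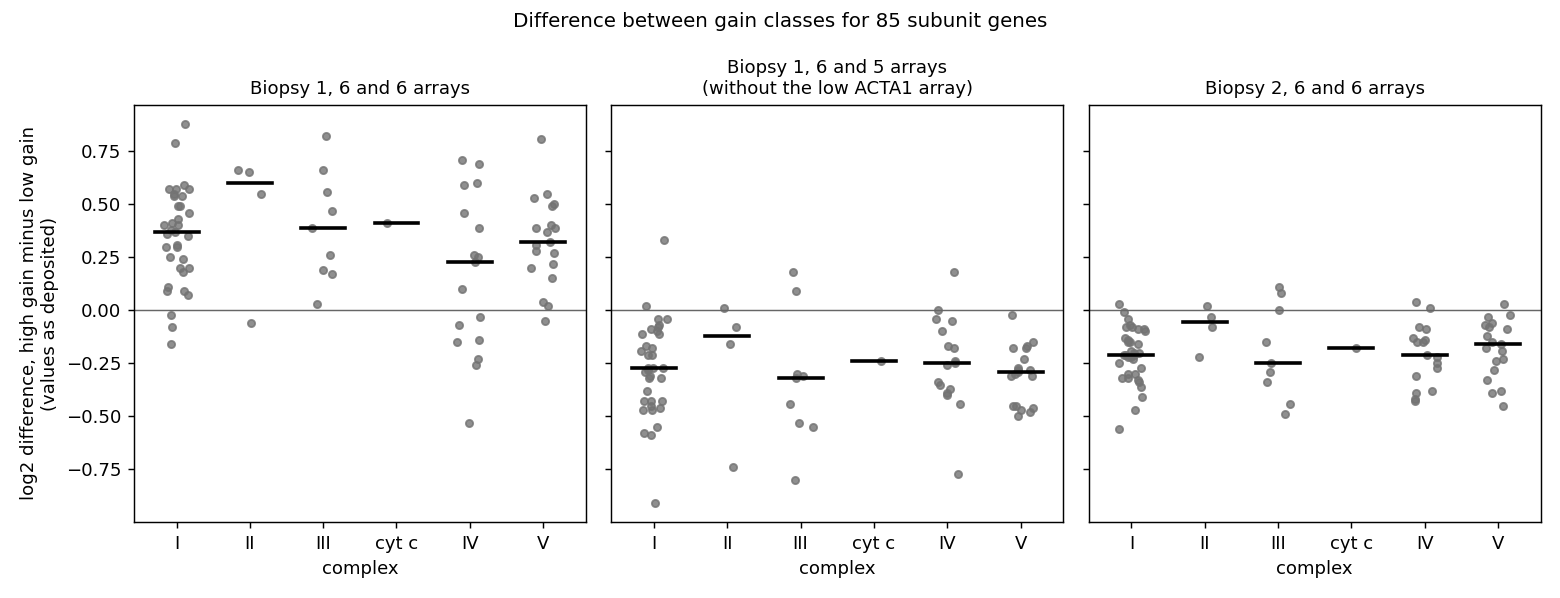
Difference between the classes, high gain minus low gain (deposited log2 signal, vertical axis), of the 85 genes by complex at biopsy 1 with all arrays, at biopsy 1 without the array of low ACTA1, and at biopsy 2, with points for genes and bars for medians. The median moves from 0.36 to -0.28 when 1 array is left out, and no gene passed the test in any panel.

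The spread within groups was wider for the members than for most genes. The median SD over the 85 members was 0.43 and 0.44 in high gain cows at biopsy 1 and 2, and 1.66 and 0.33 in low gain cows, with 0.45 at biopsy 1 without the array of low ACTA1. Over all genes the same medians were 0.25, 0.26, 0.34 and 0.24, and 0.25.

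Genes that build or regulate the complexes changed in both directions over all cows, to be read against the same 38.1%. Of the 19 genes listed for complex I assembly 4 rose and none fell: FOXRED1 by 0.82 (SE 0.11), NUBPL, which delivers iron-sulphur clusters, by 0.44, COA1 by 0.91 and NDUFAF3 by 0.75. NDUFAB1 was counted in this list and not among the members, because its symbol is outside the rule that set them. SDHAF4, 1 of 4 complex II factors, fell by 0.35. Of 5 complex III factors 2 rose, BCS1L, which inserts the Rieske protein, by 1.33 (SE 0.28) and UQCC3 by 0.32. Of 25 complex IV factors 8 rose and 4 fell. SURF1, whose loss causes Leigh syndrome in humans, rose by 1.18 (SE 0.19) and COA4 by 0.65 (SE 0.07), whereas HIGD1A fell by 0.70 (SE 0.15) and COA6, a copper-handling factor, by 0.45. For the ATP synthase 1 of 3 factors rose, ATPAF2 by 0.63.

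COQ7, a hydroxylase of coenzyme Q synthesis, rose by 1.02 (SE 0.15), the only call among 13 genes of that list. In haem synthesis ALAD rose by 0.95 and UROS by 0.47, and CPOX fell by 0.53, of 7 genes. Among 22 genes of mitochondrial biogenesis and genome expression 6 rose and 4 fell. ESRRA, a nuclear receptor that drives oxidative genes, rose by 1.34 (SE 0.16, adjusted p = 5.73e-05) and POLG, the mitochondrial DNA polymerase, by 0.67. GABPB1, a subunit of a factor that binds promoters of many chain genes, fell by 0.74 and MTERF1 by 0.45. None of the 7 named genes for nucleotide, phosphate and creatine kinase coupling passed (limma, 0 at an unadjusted p under 0.05), with VDAC3, an outer membrane channel, at 0.51. Without low gain cow 4, all the genes named in these lists as changed were called in the same direction except UQCC3 (0.25, adjusted p = 0.0535). Genes called lower only there were NDUFAF5 (-0.53, limma adjusted p = 0.00838), TFB2M (-0.72, adjusted p = 0.00484) and SSBP1 (-0.42, adjusted p = 0.0148). The complex I assembly list then had 4 higher and 1 lower (26.3%). The biogenesis list had 6 higher and 6 lower (54.5%), against 41.5% of all genes.

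Markers of other cells were measured beside these changes. Over all cows none of 9 skeletal muscle fibre, 8 slow fibre, 7 fast fibre, 7 adipocyte, 8 fibroblast, 4 endothelial, 3 red blood cell or 3 smooth muscle markers passed the test (limma; at an unadjusted p under 0.05 there was 1 fibroblast and 1 smooth muscle marker), while C1QA rose and CD53, CD163 and PTPRC fell among 6 markers of macrophages and leukocytes. In the 11 cows 2 of 7 fast fibre markers were lower, ACTN3 and TNNT3, the second of which also stands in the skeletal muscle list, and 1 fibroblast and 2 endothelial markers were higher. The adipocyte list's mean level per array at biopsy 1 lay between 8.54 and 12.63 for high gain and between 8.84 and 15.35 for low gain cows (at most 11.6 without the array of low ACTA1). At biopsy 2 the limits were 8.14 and 16.41, and 8.88 and 13.77. On most arrays ACTA1, CKM, MB, TNNC2, TTN, NEB, MYBPC1 and the slow fibre markers MYH7 and MYL2 had the maximal value. That value was 19.81 at biopsy 1 and 19.93 at biopsy 2, so these genes separate arrays only below that limit. Their tests could hardly show a change, and no conclusion on muscle or slow fibre content is drawn from them. The part of these cell types in the members' changes was not tested. The maximal values differ between the biopsies, and the arrays of each biopsy were taken as normalized as a set of their own. Biopsy number and such separate scaling cannot be told apart in any change between biopsies.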

How the data were processed

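Total RNA from muscle biopsies was labelled with biotin and hybridised to 1-colour Affymetrix arrays, 1 array per cow and biopsy. The deposited values are normalized log2 signals per array row, which the authors made with Affymetrix Expression Console and Transcriptome Analysis Console, per the submitters' processing notes. The base of the log is read from the range of the values, whose upper limits of 19.81 and 19.93 differ between the biopsies. Of 26773 rows, 18790 carried 1 gene symbol, 385 several and 7598 none.

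The members and gene lists were chosen with earlier results of these data known. The 14198 genes past the filter were fitted together by limma (version 3.58.1, under R 4.3.3), using moderated variances with an intensity trend, and a gene was called at a Benjamini-Hochberg adjusted p under 0.05. Biopsies were compared after quantile normalization of the 24 arrays, with cow as a fixed block. This normalization was used because the arrays of each biopsy were taken as normalized separately before deposit. Gain classes were compared within a biopsy on the deposited values. The script was tested on simulated data.

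Cows are the replicates. Biopsies were paired by the animal number in the titles. The correlation of 1 cow's deviations from the group means had a median of 0.157 (range -0.202 to 0.348), against 0.027 between different cows. Only in 3 of 12 cows was the cow's own other biopsy the best match, so the pairing rests on the titles.

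Genes named with values were those called in each complex (up to 6 by p, otherwise the 2 of smallest p), those of smallest p in the class comparisons, the tissue-specific gene pairs and the brightest and dimmest members; other members are named where a count or a subcomplex needed them, after their values were seen. COX6B1 and mitochondrially encoded subunits were not analysed here. No detection calls were used, and the number of arrays limits the precision. Protein and promoter sequences were not used here.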

Additional observations from a re-analysis of the deposited data

Results flagged for a closer look

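In groups of 6, a sample was marked where its gap to the nearest other sample exceeded Dixon's critical share of the group's range, which chance does in about 1 in 20 groups. The test was run on the 15 genes shown per array, on deposited log2 signals. Low gain cow 4 at biopsy 1 was far below its group for ATP5F1B (13.16), ATP5MG (16.06), ATP5PB (14.60), COX5B (6.87), COX6A2 (11.13), COX8B (9.57), CYCS (8.58), NDUFA5 (11.72), NDUFS7 (7.14), SDHB (13.13) and UQCR11 (13), and far above it for COX6A1 (10.83). High gain cow 4 at biopsy 2 was far below for COX6A2 (16.21), COX8B (12.47), CYCS (10.74), NDUFS7 (12.22) and SDHB (16.94), and far above for COX6A1 (13.79). High gain cow 1 at biopsy 1 was low for ATP5F1B (17.27), and low gain cow 3 at biopsy 2 was high for COX4I2 (8.46). Over all 85 members the test marked 65 genes in low gain cows at biopsy 1, 20 in high gain cows at biopsy 2, 9 in high gain cows at biopsy 1 and 4 in low gain cows at biopsy 2.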

How the results depend on the processing

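With other settings, the count of members called over all cows was 32 with array weights, 37 without the array of low ACTA1 and 41 without both cows 4, an alternative chosen after seeing the data. In high gain cows it was 21, 25 and 31 under the same settings and 1 with the filter at the median. In low gain cows it was 10 on values as deposited, 2 with the filter at the median, 12 without the array of low ACTA1 and 20 without both cows 4. The share of all genes called moved too. Over all cows it was 38.1% in the main fit, 41.5% without the array of low ACTA1 and 42.5% without both cows 4. In high gain cows these shares were 20.3%, 28% and 28.5%, and in low gain cows 20.3%, 18.9% and 22.9%. For other settings, and for fits that left out another cow, the share is not given here. Leaving out each cow in turn gave 8 to 37 members over all cows, 2 to 25 in high gain and 3 to 12 in low gain cows, and 0 in the 3 comparisons between classes. With no replicate block the paired comparisons gave 17, 3, 9 and 0, and with a random replicate block 17, 4, 9 and 0. Median centring, no filter, the mean of a gene's rows, no trend and leaving out COX7C moved no count by over 1.5 times. On values as deposited the all-gene median was 0.12 in place of 0.02, and that of the members was 0.48 in place of 0.35. None of the 18 members called over all cows changed direction in any setting. Members called lower only without the array of low ACTA1 had estimates that changed sign between settings in some cases: NDUFA2 -0.47 to 0.14, COX7C -0.39 to 0.08, ATP5IF1 -0.34 to 0.06, NDUFB3 -0.46 to 0.04, ATP5PO -0.41 to 0.03 and UQCRB -0.37 to 0.01. The p-values carry the spread between 12 cows, and among fits that left out 1 cow, the one without low gain cow 4 gave the highest count in each of the 3 comparisons of biopsies; the cause of the other differences between settings was not tested.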
